A study of Mus musculus with 46 samples.

Results

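The binding of Hnf4α to liver chromatin was compared between mice kept on a lipid-rich diet (LD) and mice kept on a carbohydrate-rich diet (CD). ChIP-seq (sequencing of the DNA recovered with an antibody) for Hnf4α was done on 4 livers, 2 per diet, and each liver gave 1 list of peaks called with HOMER. All mice were C57BL/6 males, obtained at 5 weeks of age, given normal chow while they settled and then kept on a diet for up to 20 weeks, with 60% of energy from lipid on LD and 70% from carbohydrate on CD. LD is called a high fat diet in the sample labels, and CD a low fat diet. The livers were whole tissue, so fewer hepatocytes and less binding per hepatocyte cannot be told apart. Albumin transcript, the defining product of hepatocytes, stood at 67059 ± 6199 CPM (read counts scaled to the library size) in the 5 LD livers and 70265 ± 5226 CPM in the 5 CD livers (mean ± SD) in the RNA-seq of the same series. Other hepatocyte markers went both ways. Serpina1a was lower on LD (log2 fold change of LD over CD -0.49 ± 0.10, SE, adjusted p = 0.00264, edgeR). Apoa1 (-0.20 ± 0.09, adjusted p = 0.106) and Ttr (0.15 ± 0.10, adjusted p = 0.272) did not pass the same test. For the antibody, the labels give consecutive catalogue numbers, a different one for each of the 4 samples, where the methods name a single one.

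Merging of overlapping peaks gave 70756 loci, of which 24905 had a peak in 1 list, 12057 in 2, 10450 in 3 and 23344 in all 4. These 23344 shared loci are described here. A peak's height is its tag count (a tag is a mapped read) scaled by HOMER to a fixed library total. At each shared locus the height was turned into a percentile rank among the shared loci of that sample, from 0 for the lowest to 100 for the highest. A rank shows the place of a locus among the others, and a gain or loss common to all loci does not alter it.

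Hnf4α is a nuclear receptor of hepatocytes that binds DNA as a homodimer and occupies enhancers and promoters of genes for lipoproteins, clotting factors, bile acid synthesis and glucose output. It often binds beside other liver factors, among them C/EBPα and the FOXA proteins. Binding of a factor at an active enhancer usually coincides with acetylation of lysine 27 on the surrounding histone H3 (H3K27ac). The transcript of Hnf4a itself ranged from 372 to 459 CPM in the 5 LD livers, with a median of 394, and from 453 to 507 in the 5 CD livers, with a median of 475. The ranges overlapped by 1 LD liver, and the log2 fold change of LD over CD was -0.26 ± 0.07 (SE, adjusted p = 0.0176, edgeR), below the fold of 1.2 required for a call.

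The 4 libraries differed in how strongly they were enriched, in an order that did not follow diet. The lists held 46363 and 44247 peaks on LD and 35143 and 47992 on CD. CD replicate 1 had the lowest median height at the shared loci and CD replicate 2 the highest, 21.5 and 42.8, with LD replicates 1 and 2 between them at 35.8 and 33.5. The ratio of tags to height gave the same library total for every list, and how the totals were made equal is not given in the sources used here. The tags at a shared locus had medians of 143, 134, 86 and 171 in LD replicates 1 and 2 and CD replicates 1 and 2, against 10, 11, 8 and 9 tags of input. The shared loci made up 66.4% of the list of CD replicate 1 and 48.6% to 52.8% of the other lists.

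The sequence under some of the loci that the following results turn on is given here, as the central 200 bases of the merged peak on the plus strand of NCBIM37 (mm9). The 6 loci shown first were higher on LD and the last 3 higher on CD. Capitals mark matches on either strand to 6 short strings: CAAAGTCCA and CAAAGGTCA (HNF4), TGTTTAC (FOXA), TTGCNNAA (C/EBP), TGANTCA (AP-1) and CCGGAAGT (ETS). The D7Ertd443e locus carries a FOXA string 1 base from a C/EBP string. The Chn2 locus is the one shown with an HNF4 string.

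D7Ertd443e intron, chr7:141558389-141558588: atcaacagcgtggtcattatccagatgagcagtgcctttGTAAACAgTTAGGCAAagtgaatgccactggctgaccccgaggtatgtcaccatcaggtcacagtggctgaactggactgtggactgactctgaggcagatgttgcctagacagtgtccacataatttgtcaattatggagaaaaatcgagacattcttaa

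Chn2 intron, chr6:54177121-54177320: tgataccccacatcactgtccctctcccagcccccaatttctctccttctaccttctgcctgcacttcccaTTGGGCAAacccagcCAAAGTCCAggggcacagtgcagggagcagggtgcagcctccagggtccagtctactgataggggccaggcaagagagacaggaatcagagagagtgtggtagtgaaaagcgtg

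Smpdl3b intron, chr4:132291922-132292121: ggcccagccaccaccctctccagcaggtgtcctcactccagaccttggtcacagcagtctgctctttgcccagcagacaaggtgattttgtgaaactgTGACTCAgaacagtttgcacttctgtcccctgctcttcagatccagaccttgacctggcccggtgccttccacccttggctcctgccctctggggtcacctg

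Slc28a1 upstream, chr7:88256698-88256897: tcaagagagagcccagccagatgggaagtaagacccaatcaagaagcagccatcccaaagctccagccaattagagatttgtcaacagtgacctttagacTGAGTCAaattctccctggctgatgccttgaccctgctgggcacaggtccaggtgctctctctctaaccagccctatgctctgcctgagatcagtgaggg

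Hadha intron, chr5:30479065-30479264: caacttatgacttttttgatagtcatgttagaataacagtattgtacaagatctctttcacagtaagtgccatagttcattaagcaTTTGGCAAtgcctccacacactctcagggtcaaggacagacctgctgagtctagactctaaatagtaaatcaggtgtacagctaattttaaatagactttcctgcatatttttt

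Lcn2 upstream, chr2:32243323-32243522: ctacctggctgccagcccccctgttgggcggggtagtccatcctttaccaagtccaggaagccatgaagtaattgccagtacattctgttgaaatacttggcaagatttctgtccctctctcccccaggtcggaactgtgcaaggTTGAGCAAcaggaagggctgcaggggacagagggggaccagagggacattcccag

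Apoa5 upstream, chr9:46067309-46067508: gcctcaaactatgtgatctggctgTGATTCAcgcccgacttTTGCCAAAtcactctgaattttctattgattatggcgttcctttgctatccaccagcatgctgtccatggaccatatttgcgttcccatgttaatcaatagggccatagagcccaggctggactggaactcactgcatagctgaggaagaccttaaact

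Alb upstream, chr5:90876719-90876918: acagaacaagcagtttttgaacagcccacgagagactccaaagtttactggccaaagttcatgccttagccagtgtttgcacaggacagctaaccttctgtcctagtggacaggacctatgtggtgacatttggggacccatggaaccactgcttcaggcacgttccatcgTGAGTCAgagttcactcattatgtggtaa

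Lamc3 intron, chr2:31798580-31798779: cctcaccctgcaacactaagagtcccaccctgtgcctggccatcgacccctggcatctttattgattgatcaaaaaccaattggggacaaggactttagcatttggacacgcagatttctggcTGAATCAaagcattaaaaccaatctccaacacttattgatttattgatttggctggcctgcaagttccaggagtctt

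Heights of the same loci ran in nearly the same order in all livers. Over the 23344 loci the correlation of ranks was 0.927 between the 2 LD samples and 0.941 between the 2 CD samples, and 0.858 to 0.890 across diets. These correlations are across loci that share their library and base composition, and describe the libraries. The median difference in rank of a locus was 5.39 points within LD and 5.32 within CD, and 7.33 to 7.99 points between an LD and a CD sample. The difference of the diet means, LD minus CD, had an SD of 12.5 points over all loci, with 5% of loci below -19.8 and 5% above 21.7. It reached 71.5 points at one extreme and -55.6 at the other. At 1380 loci the difference was 20 points or more toward LD, and at 1134 loci as much toward CD.

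No locus passed the test on ranks. With limma, 0 of 23344 loci (0%) were higher on either diet at an adjusted p under 0.05, with a smallest adjusted p of 0.0598. An unadjusted p under 0.05 was reached by 4930 loci, of which 2561 had the higher rank on LD and 2369 on CD. Both LD samples ranked above both CD samples at 6029 loci (25.8%), and both CD samples above both LD samples at 6329 (27.1%). With ranks over each whole peak list in place of the shared loci, the counts were 7292 (31.2%) and 3387 (14.5%), so the balance turns with the base of the ranks. On other scales the outcome was different. edgeR on the tag counts called 961 loci (4.12%) higher on LD and 615 (2.63%) higher on CD, and DESeq2 on these counts 493 and 304. Log2 heights centred on the median gave 774 and 752 calls, a share of 50.7% on the LD side against 61.0% with edgeR.

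Tag counts and heights are the same reads on different scales, so the ranks are no second measurement of the loci called by edgeR on tags. All 961 LD-higher loci had both LD ranks above both CD ranks, and all 615 CD-higher loci the opposite. The median fold was 2.09 toward LD for the first and 1.75 toward CD for the second. Without CD replicate 2 edgeR called 190 and 81 loci, and without LD replicate 2 it called 368 and 129, so these classes rest in part on 2 libraries. In each such fit the lone sample of a diet was taken to vary like the others. In the text below, LD-higher and CD-higher loci are the classes called by edgeR on tags from all 4 libraries, and their features in the other assays are descriptions of those classes.

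**Figure D1:**
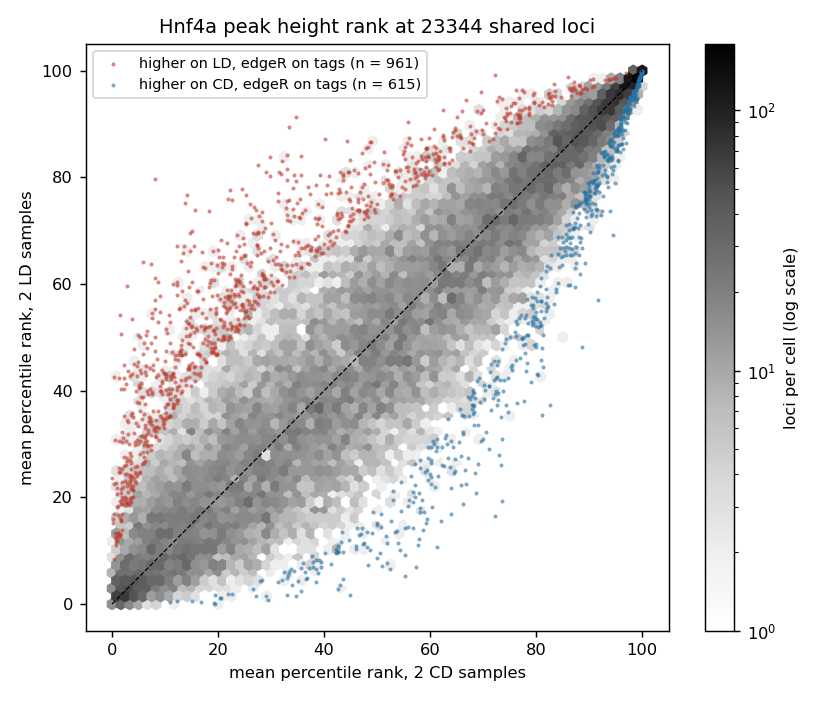
Mean percentile rank of Hnf4α peak height in the 2 CD samples (horizontal axis) against the 2 LD samples (vertical axis), with the number of the 23344 shared loci per cell in grey on a log scale. Red points are the 961 loci higher on LD and blue points the 615 higher on CD by edgeR on tag counts, and the broken line marks equal ranks.

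LD-higher loci were mostly of middle or low height and CD-higher loci mostly high. Of the LD-higher loci, 98 were in the top group when the shared loci were cut into 5 equal groups by mean rank, against 261 of the CD-higher loci. In the lowest group the counts were 167 and 37. The median height of LD-higher loci was 41.2 and 42.8 in LD replicates 1 and 2 against 13.5 and 24.0 in CD replicates 1 and 2. For CD-higher loci the LD samples had 44.8 and 39.2 and the CD samples 45.8 and 98.2. Over all shared loci these medians were 35.8 and 33.5 on LD and 21.5 and 42.8 on CD. Heights of different libraries are therefore not on the same scale. The median of the mean height was 30.15 for LD-higher loci and 55.5 for CD-higher loci, against 33.5 for all. For LD-higher loci called without CD replicate 2 it was 43.8, above that of all shared loci.

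**Figure D2:**
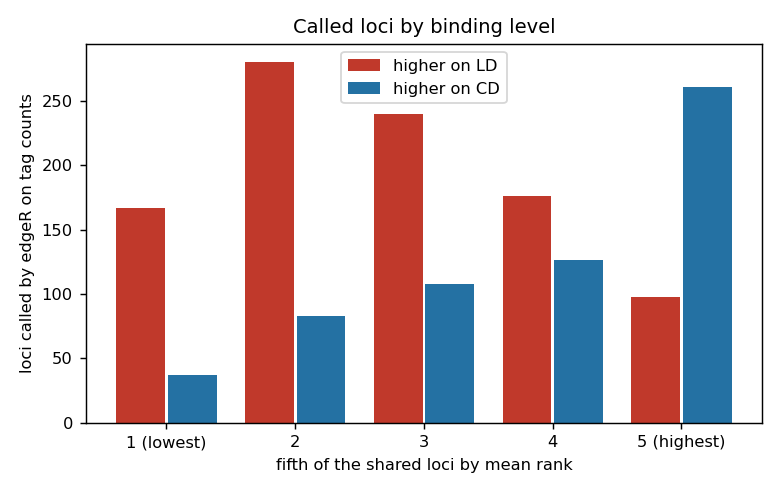
Number of loci called higher on LD (red) or on CD (blue) by edgeR on tag counts (vertical axis) in 5 equal groups of the shared loci ordered by mean percentile rank (horizontal axis). The LD-higher bars fall to 98 in the highest group, where the CD-higher bar reaches 261.

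The 10 loci taken in each direction for the smallest p on the rank scale lay within introns or between genes. In an intron of D7Ertd443e (chr7:141558374-141558600) the ranks were 86.6 and 92.3 on LD against 38.8 and 27.9 on CD. Heights reached 82.8 and 93.0 on LD but 17.5 and 27.2 on CD, and the groups did not overlap. The difference was 56.1 ± 6.91 points (SE, adjusted p = 0.0598, limma), and edgeR on tags gave 3.66-fold more on LD (adjusted p = 0.000242). H3K27ac regions, as called by the authors with SICER, covered 80.0%, 94.4% and 100% of the 2 kb around this locus in the 3 LD samples, and 40%, 0% and 0% of it for the 3 CD livers. C/EBPα also stood higher there on LD, with ranks of 56.5 and 49.6 among the co-bound loci against 4.37 and 11.1 on CD (difference 45.3 ± 9.42, adjusted p = 0.00926, limma).

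Trim2, which encodes a ubiquitin ligase, had a locus in an intron (chr3:84046417-84046660) with ranks of 74.0 and 76.3 on LD against 14.97 and 12.7 on CD. This was a difference of 61.3 ± 7.63 points, the widest of the 10 loci with the smallest p on the LD side. C/EBPα ranked 70.1 and 72.1 there on LD and 36.2 and 27.8 on CD (difference 39.1 ± 8.98, adjusted p = 0.0150, limma). In an intron of Sec16a (chr2:26285376-26285618), a gene of protein export from the endoplasmic reticulum, the ranks were 90.3 and 92.2 on LD and 42.6 and 26.7 on CD. H3K27ac covered over 95% of that window in every sample of both diets. The Sec16a transcript differed by -0.25 ± 0.08 on the log2 scale (adjusted p = 0.0380, edgeR), below the fold of 1.2 required for a call. Zfp746 had an intronic locus (chr6:48031996-48032256) with ranks of 83.0 and 81.6 on LD against 24.4 and 30.7 on CD. Its transcript was 20.4 ± 1.27 CPM on LD and 16.3 ± 1.09 on CD (log2 fold change 0.33 ± 0.07, adjusted p = 0.00531, edgeR).

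Other loci were already high on CD and higher still on LD. The intron of Angpt1 (chr15:42419155-42419386), which encodes an angiopoietin that signals to endothelium, had heights of 210.0 and 178.0 on LD and 38 and 61.5 on CD. It had the smallest adjusted p of the 20 loci in the tag test, 1.14e-05 by edgeR, with a 3.62-fold higher count on LD. A locus in an intron of Smpdl3b (chr4:132291903-132292133), nearest to the start of Xkr8, had heights of 167.2 and 214.5 against 51.8 and 98.8, and ranks of 98.0 and 99.7 against 87.1 and 84.8. The Slc28a1 locus (chr7:88256686-88256907), upstream of a nucleoside transporter gene, ranked 95.05 and 96.8 on LD and 79.7 and 75.9 on CD. The Slc28a1 transcript stood at 0.390 ± 0.237 CPM on LD and 0.235 ± 0.136 CPM on CD and did not pass the test (log2 fold change 0.73 ± 0.53, adjusted p = 0.336, edgeR). The remaining loci on this side were in an intron of Chn2, in an intron of Slc7a15 and in intergenic sequence 36.3 kb from the start of Ccdc25. Transcripts of the genes nearest to the LD-side loci, Zfp746 apart, were not called. Trim2 differed by 0.32 ± 0.12 on the log2 scale (adjusted p = 0.0713, edgeR), Angpt1 by 0.48 ± 0.28 and Xkr8 by 0.16 ± 0.12, while D7Ertd443e was too low to enter the test. Prr15, Rhob and Ccdc25, nearest to the Chn2, Slc7a15 and intergenic loci, differed by -0.20 ± 0.33, 0.18 ± 0.09 and -0.10 ± 0.06.

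On the CD side, Pde9a and Myo6 each had an intronic locus among those with the smallest p. Pde9a encodes a phosphodiesterase of cyclic GMP, and its locus (chr17:31582401-31582683) ranked 42.5 and 28.5 on LD and 82.1 and 80.0 on CD. Its transcript was lower on LD (log2 fold change -0.58 ± 0.12, adjusted p = 0.00371, edgeR). The locus in Myo6, an actin motor gene (chr9:80104738-80105191), ranked 1.71 and 1.61 on LD and 47.5 and 42.2 on CD. The log2 fold change of the Myo6 transcript was -0.34 ± 0.07 (adjusted p = 0.00408, edgeR). Other CD-side loci were in introns of Dlc1, Muc5ac, Inpp5a and Lamc3 and in intergenic sequence nearest to Slc6a15, Kcnk5 and Apoa5. Apoa5 encodes a regulator of plasma triglyceride, and the locus 9.28 kb from its start (chr9:46067280-46067541) ranked 77.9 and 80.4 on LD against 92.2 and 94.4 on CD. The strongest shared locus of this gene, 11.7 kb from its start, differed little. It ranked 96.7 and 96.1 on LD and 97.6 and 97.1 on CD (adjusted p = 0.303, edgeR on tags). The Apoa5 transcript differed by -0.26 ± 0.09 on the log2 scale (adjusted p = 0.0400, edgeR), below the fold of 1.2. Kcnk5, at -0.38 ± 0.17 (adjusted p = 0.128), and 6430573F11Rik, nearest to the Dlc1 locus, at 0.12 ± 0.18 (adjusted p = 0.663), did not pass the test. Muc5ac, Slc6a15, Nkx6-2 (nearest to the Inpp5a locus) and Aif1l (nearest to the Lamc3 locus) were too low to enter it, with means of at most 0.147 CPM on either diet.

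**Figure D3:**
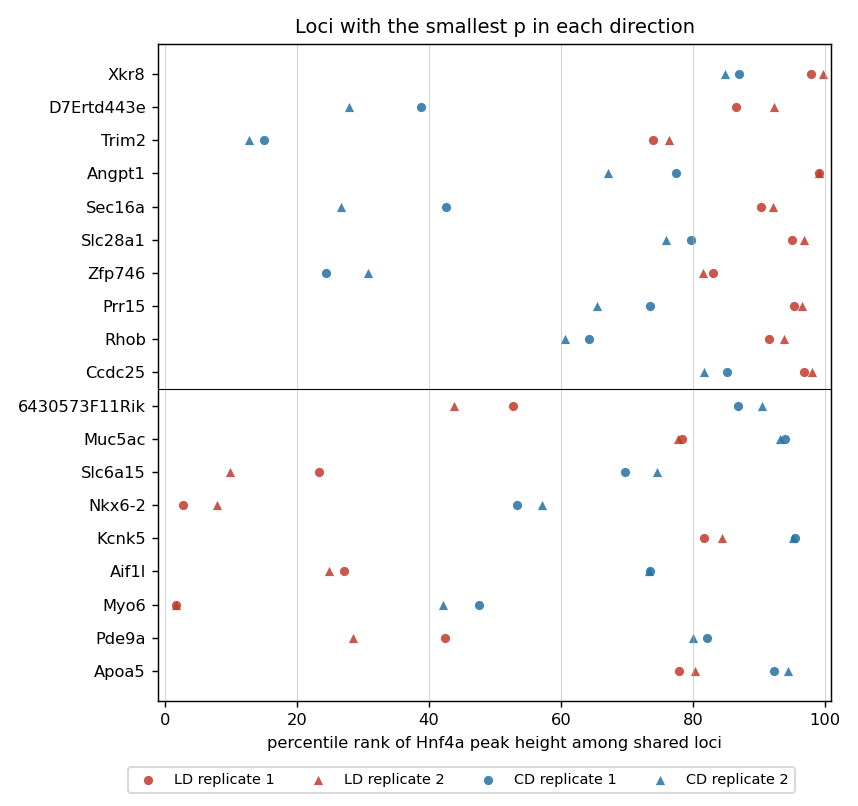
Percentile rank of Hnf4α peak height (horizontal axis) in LD replicates 1 and 2 (red) and CD replicates 1 and 2 (blue) at 10 loci higher on LD (above the line) and 9 higher on CD (below it), taken from those with the smallest p in their direction. Each row is named for the gene whose start is nearest. The samples of the 2 diets do not overlap in any row, which is how the loci were chosen.

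For genes of liver function, the locus of greatest mean height among those nearest to the gene (within 50 kb of its start) was followed. The lists were drawn up by function, and the medians over all shared loci were -0.35 points and 0.00 on the log2 scale of the tag test. Genes for secreted proteins had such a locus at 19 of 23. At 3 of these both LD ranks were above both CD ranks and at 8 the opposite, where 25.8% and 27.1% of all shared loci were so placed. The tag test called 4 of the 19 higher on CD and 0 higher on LD, against 2.63% and 4.12% of all shared loci, the 4 being Lipc, Ttr, Alb and F10. The same shares are the background of the counts in the lists that follow. The loci followed are the highest of each gene, however, and the tag calls varied with height. In the highest of the 5 groups by mean rank, 98 of 4669 loci were called higher on LD and 261 higher on CD. With ranks over each whole peak list the counts here were 4 on LD and 6 on CD, against 31.2% and 14.5% of all shared loci. Members given below with ranks alone did not pass the tag test, with adjusted p-values of 0.0898 to 0.519 (edgeR).

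Lipc encodes hepatic lipase, and its intronic locus (chr9:70782521-70782753) had heights of 148.8 and 136.0 on LD and 142.8 and 300.2 on CD, which are ranks of 96.9 and 97.4 against 99.3 and 99.4. The CD count was 1.62-fold higher (adjusted p = 0.00547, edgeR on tags), and the Lipc transcript was lower on LD with a log2 fold of -0.72 ± 0.08 (adjusted p = 3.64e-05, edgeR). For F10, coagulation factor X, the locus 483 bp from the start ranked 82.2 and 85.6 on LD and 93.0 and 92.5 on CD (1.51-fold, adjusted p = 0.0302). The F10 transcript had a log2 fold of -0.46 ± 0.08 (adjusted p = 0.000813, edgeR). At Alb, the locus 13.1 kb upstream (chr5:90876703-90876929) ranked 93.5 and 91.3 on LD against 97.3 and 97.6 on CD (1.59-fold, adjusted p = 0.0114), and the log2 fold change of its transcript, -0.07 ± 0.09, did not pass the test. Ttr, which encodes transthyretin, had ranks of 66.6 and 70.5 against 87.4 and 85.3 (1.65-fold toward CD, adjusted p = 0.0211), and its transcript did not pass the test at 0.15 ± 0.10. Among the protease inhibitor genes, Serpinc1 ranked 86.8 and 87.6 on LD against 93.3 and 93.2 on CD (adjusted p = 0.0653, edgeR on tags), and Serpina1a 72.1 and 76.5 against 64.7 and 57.4 (adjusted p = 0.219). At Apob, the protein of very low density lipoprotein, the intronic locus ranked 95.8 and 94.7 on LD and 84.7 and 90.9 on CD.

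Bile acid and xenobiotic genes had a locus at 15 of 16, with 4 above on LD, 3 above on CD and 1 tag call. That call was Nr1i3, the nuclear receptor CAR of drug metabolism, whose locus at the gene's start (chr1:173143977-173144221, in an exon that GENCODE marks as UTR) ranked 94.8 and 94.8 on LD and 83.2 and 81.9 on CD. The tag count was 1.62-fold higher on LD (adjusted p = 0.0132), and the Nr1i3 transcript was higher on LD with a log2 fold of 0.67 ± 0.16 (adjusted p = 0.00984, edgeR). Cyp8b1, the sterol 12-alpha-hydroxylase of bile acid synthesis, ranked 87.0 and 91.3 at its promoter locus on LD and 74.7 and 79.7 on CD. Abcb11, the bile salt export pump, ranked 88.1 and 84.2 on LD and 92.3 and 92.6 on CD (adjusted p = 0.0977, edgeR on tags). Nr0b2, a repressor of bile acid synthesis, ranked 90.1 and 92.8 against 95.1 and 96.1 (adjusted p = 0.0704).

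Glucose metabolism genes had a locus at 11 of 12, with 3 above on each diet. G6pc, which encodes glucose-6-phosphatase, was the 1 gene with a tag call. Its promoter locus (chr11:101228652-101229036) ranked 98.3 and 98.6 on LD and 99.4 and 99.3 on CD, with 1.40-fold more tags on CD (adjusted p = 0.0322), and its transcript had a log2 fold of -1.20 ± 0.22 (adjusted p = 0.00244, edgeR). For Slc2a2, the glucose transporter of hepatocytes, the ranks were 90.9 and 91.2 on LD against 94.3 and 95.7 on CD. Ppargc1a, a coactivator of fasting genes, ranked 84.8 and 85.3 on LD against 71.9 and 73.3 on CD (adjusted p = 0.134, edgeR on tags), while its transcript was lower on LD (log2 fold change -0.73, adjusted p = 0.000701, edgeR).

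Fatty acid oxidation genes had a locus at 20 of 23, with 6 above on LD and 4 above on CD, and the tag test called 1 in each direction. Over all 57 loci nearest to these genes the balance was the other way, with 12 above on LD and 17 above on CD. The RNA-seq called 14 of 23 of these genes higher on LD and 0 lower, where 13.8% of the 13494 tested genes were called higher on LD and 11.1% lower. Hadha and Hadh, which encode dehydrogenases of the beta-oxidation cycle, were the genes called in binding, and they went opposite ways. In Hadha the intronic locus (chr5:30479048-30479280) ranked 80.9 and 82.1 on LD and 63.8 and 52.2 on CD (1.72-fold toward LD, adjusted p = 0.0255), and the transcript did not pass the test (log2 fold change 0.20 ± 0.07, adjusted p = 0.0532, edgeR). Near Hadh the locus (chr3:130986199-130986431) ranked 87.1 and 90.2 on LD and 94.6 and 96.7 on CD (1.57-fold toward CD, adjusted p = 0.0187), while the transcript was higher on LD, with a log2 fold of 0.68 ± 0.10 (adjusted p = 0.000302, edgeR). Acaa1a, a peroxisomal thiolase gene, ranked 90.9 and 90.4 against 85.5 and 85.2.

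Lipid droplet and uptake genes had a locus at 14 of 15, with 3 above on LD, 2 above on CD and both tag calls toward CD. All 33 loci nearest to these genes had 7 above on LD and 9 above on CD. Those calls were Cidec and Fabp1. Cidec encodes a lipid droplet protein, and its locus in a coding exon 7.52 kb from the start (chr6:113378123-113378347) ranked 83.5 and 82.9 on LD and 92.5 and 95.7 on CD (1.72-fold toward CD, adjusted p = 0.00999). C/EBPα at this locus ranked 24.1 and 17.2 on LD and 48.3 and 57.9 on CD (difference -32.4 ± 9.70, adjusted p = 0.0427, limma). The Cidec transcript went the opposite way, 94.4 ± 39.7 CPM on LD and 2.17 ± 0.686 on CD (log2 fold change 5.44 ± 0.41, adjusted p = 4.24e-05, edgeR). Fabp1, the liver fatty acid binding protein, ranked 69.6 and 73.1 against 88.6 and 83.7 at a locus 26.8 kb upstream (1.55-fold toward CD, adjusted p = 0.0407), and its transcript did not pass the test (0.08 ± 0.08). Mogat1, a monoacylglycerol acyltransferase gene, had ranks of 79.2 and 76.7 on LD and 61.0 and 64.7 on CD and a transcript higher on LD by a log2 fold of 2.59 ± 0.38 (adjusted p = 0.000849, edgeR).

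Of 14 genes of de novo lipogenesis, 8 were called lower on LD by RNA-seq and 0 higher, where 11.1% of all tested genes were called lower and 13.8% higher. Of the 13 with a locus 2 ranked higher on each diet, against 25.8% and 27.1% of all shared loci, and 0 had a tag call. Among all 50 loci nearest to these genes 14 were above on LD and 8 above on CD. Pnpla3, a lipase gene of lipid droplets that carbohydrate induces, ranked 90.0 and 89.9 on LD and 93.5 and 95.5 on CD and had a log2 fold of -2.30 ± 0.25 in RNA (adjusted p = 0.000107, edgeR). The locus in Elovl6, a fatty acid elongase gene, stayed near the top of the order at 99.5 and 99.7 on LD and 98.99 and 98.6 on CD, with a transcript log2 fold change of -0.85 ± 0.12.

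Urea cycle and amino acid genes had a locus at 11 of 12, of which 6 ranked higher on both CD samples and 1 on both LD samples, with a median difference of -5.69 points. Over all shared loci 27.1% ranked higher on both CD samples and 25.8% on both LD samples. The tag test called 1, Ass1 (argininosuccinate synthase), toward CD (1.38-fold, adjusted p = 0.0412) at one of the highest loci, which ranked 99.7 and 99.8 on LD and 99.9 and 99.8 on CD. Otc, ornithine transcarbamylase, ranked 49.4 and 46.7 on LD against 63.4 and 69.8 on CD. Hal, histidase, ranked 73.4 and 73.5 against 82.6 and 83.5. RNA-seq called 7 of these 12 genes lower on LD and 1 higher, against 11.1% and 13.8% of all tested genes. Hepatocyte transcription factor genes had a locus at 15 of 17, with 0 above on LD, 6 above on CD and 0 tag calls, beside the same 25.8% and 27.1% of all shared loci. With ranks over each whole peak list the counts were 2 on each diet for the factors and 2 on LD and 5 on CD for the urea cycle list. Among the factor genes Nr2f1, an orphan nuclear receptor gene, ranked 32.1 and 30.7 on LD and 57.4 and 52.2 on CD. Its transcript was very low in these livers, at 0.67 ± 0.12 CPM on LD and 0.68 ± 0.27 on CD.

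The genes the study showed as examples included wide differences at promoters, and since the study chose them on these samples they are not independent evidence of a direction. Lcn2, lipocalin 2, an acute phase protein, had a locus 163 bp upstream of its start (chr2:32243256-32243566) with heights of 33.8 and 24.2 on LD and 7.75 and 14.5 on CD. The ranks were 46.9 and 31.8 against 6.82 and 8.39, the tag count was 2.46-fold higher on LD (adjusted p = 0.0110, edgeR) and the transcript had a log2 fold of 4.32 ± 0.26 (adjusted p = 7.15e-06, edgeR). At the start of Adgrf1, an adhesion G protein-coupled receptor gene, the 2 LD samples lay far apart, at ranks of 44.1 and 5.31, both under the CD ranks of 83.9 and 70.7. This locus did not pass the tag test (2.89-fold toward CD, adjusted p = 0.0619), and the transcript had a log2 fold of -5.69 ± 0.61 (adjusted p = 0.000296, edgeR). Lgals1, galectin 1, was taken here for the locus that the study labels only as Lgals. It ranked 68.0 and 64.3 on LD and 50.2 and 44.2 on CD, with a transcript log2 fold change of 2.33 ± 0.24. Its tag test was not passed (adjusted p = 0.124, edgeR). The intronic locus of Cd36, the fatty acid translocase gene (chr5:17368987-17369224), ranked 97.2 and 96.7 on LD and 93.2 and 90.7 on CD (adjusted p = 0.0977). C/EBPα there ranked 85.6 and 91.9 on LD against 66.7 and 67.6 on CD (difference 21.6 ± 5.22, adjusted p = 0.0189, limma).

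Markers of other cells seldom had a shared Hnf4α locus. Of 14 macrophage and leukocyte markers 3 had one, and Itgam, an integrin of myeloid cells, ranked 72.6 and 67.1 on LD against 60.5 and 57.4 on CD. Of 14 stellate, endothelial and cholangiocyte markers 5 had one, with 0 above on LD and 2 above on CD. In RNA-seq 5 of the 14 macrophage and leukocyte markers and 4 of the 14 stellate, endothelial and cholangiocyte markers were called higher on LD, and 0 lower in either list, where 13.8% of all tested genes were called higher and 11.1% lower. The part of such cells in the binding differences was not tested.

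**Figure D4:**
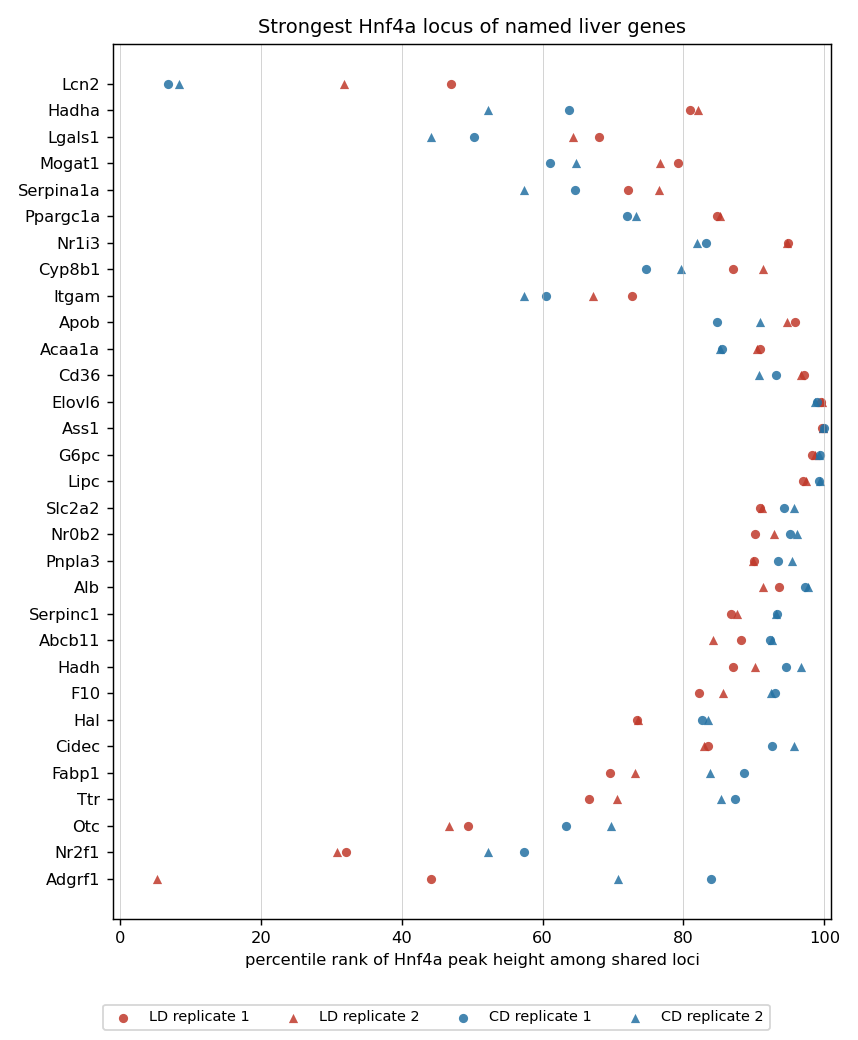
Percentile rank of Hnf4α peak height (horizontal axis) in the 4 samples at the strongest shared locus of 31 named liver genes, ordered by the LD minus CD difference. Red marks are LD and blue marks CD, circles replicate 1 and triangles replicate 2. Lcn2 at the top and Adgrf1 at the bottom have the widest gaps, and loci near rank 100 can differ little on this scale.

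The mean H3K27ac cover around the loci was higher on the diet with more Hnf4α in both classes. Around LD-higher loci, H3K27ac regions covered on average 68.2%, 64.2% and 66.1% of the 2 kb window for the 3 LD livers, and 54.9%, 47.6% and 55.0% for the 3 CD livers. Around CD-higher loci the LD livers had 79.8%, 77.9% and 75.4% and the CD livers 82.6%, 82.7% and 83.3%. The groups did not overlap in either class, and at the 21768 loci in neither class the means were 75.9% to 78.3% on LD and 75.8% to 76.9% on CD. All 3 LD samples exceeded all 3 CD samples at 140 of 961 LD-higher loci (14.6%) and 10 of 615 CD-higher loci (1.63%), against 3.45% of all shared loci. For CD-higher loci called without Hnf4α CD replicate 2 this share was 3.70%, near that of all. All 3 CD samples exceeded all 3 LD samples at 7 LD-higher loci (0.728%) and 44 CD-higher loci (7.15%), against 2.43% of all. H3K27ac regions were absent in all 6 samples at 134 LD-higher loci (13.9%) and 38 CD-higher loci (6.18%), and at 8.45% of all shared loci. In the classes called without LD replicate 2, CD-higher loci with no region made up 11.6%, above the share of all. The cover is of called regions and not of signal, and with each Hnf4α library left out in turn the mean cover of both classes stayed higher in every sample of the diet with more Hnf4α, with the exception of the CD-higher class without CD replicate 2, where LD replicate 1 reached 78.9% and CD replicate 3 78.8%.

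C/EBPα had a peak in all 4 of its lists at 6561 of the shared loci (28.1%), at 28.1% of LD-higher and 28.5% of CD-higher loci. limma on the ranks of C/EBPα height among these loci called 540 (8.23%) higher on LD and 354 (5.4%) higher on CD. The balance turned with ranks over each whole C/EBPα list (247 on LD and 446 on CD) and with log2 height (654 and 917). Of the 270 co-bound LD-higher loci 54 (20%) were called higher on LD in C/EBPα and 3 (1.11%) higher on CD. Of the 175 co-bound CD-higher loci 5 (2.86%) were higher on LD and 20 (11.4%) higher on CD. The median C/EBPα difference was 12.3 points for the first and -6.12 for the second, against -1.65 over all co-bound loci. With 1 Hnf4α library left out of the classes these medians were 12.5 to 16.0 points and -15.2 to -4.84 points. With 1 Hnf4α library left out of the classes, the share of LD-higher loci called on LD in C/EBPα was 17.2% to 32.1%, the highest without CD replicate 2. The share of CD-higher loci called on CD was 10.7% to 16.8%, except without LD replicate 2, where 2 of 35 (5.71%) were called, near the 5.4% of all. The C/EBPα libraries themselves differed by diet, with median input tags of 2 in both LD lists and 5 and 4 in the CD lists, and without CD replicate 2 of C/EBPα the calls were 106 and 3. The part of these differences in the C/EBPα result was not tested.

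The RNA-seq calls of the nearest genes are given as shares of each class, with no test of the shares. Of 427 tested genes within 50 kb of an LD-higher locus 104 (24.4%) were called higher on LD and 35 (8.20%) lower. Of 338 genes near a CD-higher locus 39 (11.5%) were called higher on LD and 103 (30.5%) lower. Over the 6395 tested genes near any shared locus the shares were 13.6% and 15.6%. Without LD replicate 2 the 11.5% became 14.5%, of 62 genes. With promoters linked to the loci by promoter capture Hi-C (a map of contacts of promoters) in place of the nearest start, the shares were 15.2% higher and 10.9% lower for LD-higher loci and 10.6% higher and 17.9% lower for CD-higher loci, against 13.3% and 12.5% for all shared loci. Without CD replicate 2 both shares for CD-higher loci were 12.9%. Without LD replicate 2 the share called higher was 12.8% for LD-higher loci and 15.1% for CD-higher loci. The order of each class and all shared loci turned there.

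**Figure D5:**
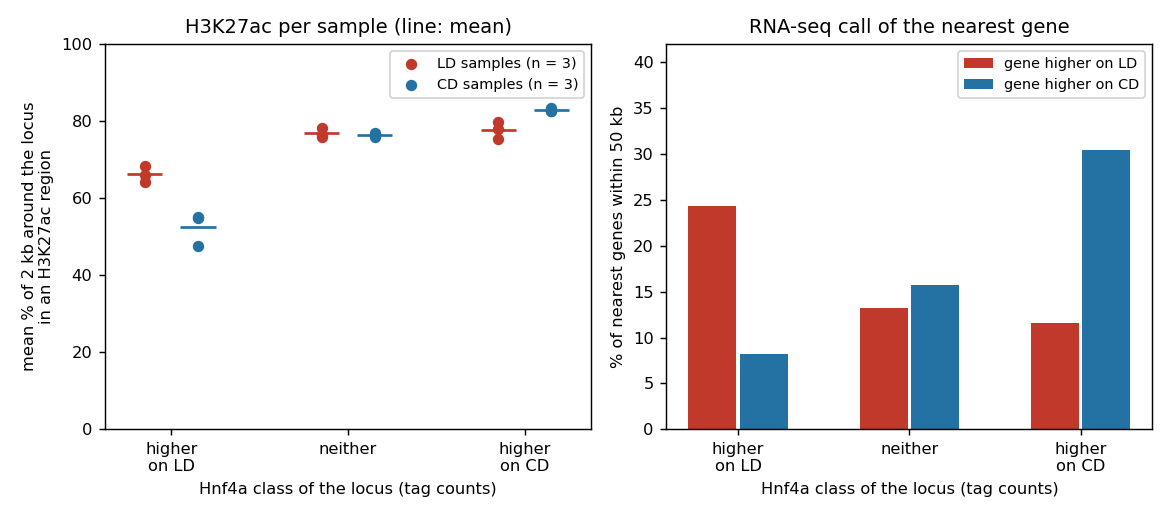
Left, mean share of the 2 kb around a locus that lies in an H3K27ac region (vertical axis, %), 1 point per sample with 3 samples per diet and a line at their mean, for loci with Hnf4α higher on LD, on neither and on CD. Right, share of the nearest genes within 50 kb called higher on LD (red) or on CD (blue) in RNA-seq (vertical axis, %), 24.4% and 8.20% for the LD-higher and 11.5% and 30.5% for the CD-higher loci.

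Within 1 kb of a transcription start lay 38 of 961 LD-higher loci (3.95%), 83 of 615 CD-higher loci (13.5%) and 12.2% of all shared loci. Their median distances to the nearest start were 26.8, 18.1 and 19.2 kb. The distance for CD-higher loci was 23.3, 25.8 and 22.3 kb without LD replicate 1, LD replicate 2 and CD replicate 1, each above that of all shared loci, and 7.67 kb without CD replicate 2. Among the 2847 promoter loci, both LD ranks were above both CD ranks at 482 (16.9%) and both CD ranks above both LD ranks at 959 (33.7%), and among the 20497 others at 27.1% and 26.2%. CD replicate 1 stood apart here, with a median rank of 54.6 at promoter loci against 47.4 and 48.1 in the LD samples and 49.1 in CD replicate 2. Without LD replicate 1 or 2 the promoter share of CD-higher loci was 8.82% or 7.75%, below that of all shared loci. Without CD replicate 1 the promoter shares of the classes were 3.65% and 9.36%, and without CD replicate 2 1.05% and 35.8%, the latter of 81 loci.

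The short strings were counted in the central 200 bases of every shared locus, as a description. CAAAGTCCA, an HNF4 string, was present at 79 LD-higher loci (8.22%), 19 CD-higher loci (3.09%) and 6.43% of all shared loci. CAAAGGTCA was present at 2.71%, 4.39% and 3.94%. The AP-1 string was at 117 LD-higher loci (12.2%) and 36 CD-higher loci (5.85%), against 7.58% of all, and the C/EBP string at 21.9%, 16.3% and 18.9%. The FOXA string was at 5.83%, 4.72% and 6.13%, and the ETS string at 1 LD-higher and 3 CD-higher loci and 0.484% of all. The bases G and C made up a median of 48.0%, 49.0% and 48.5% of the window. Several of these shares moved with 1 Hnf4α library left out of the classes. Without CD replicate 2, which left 81 CD-higher loci, CAAAGTCCA was at 7.41% of them, above that of all, the AP-1 string at 1.23% and the C/EBP string at 8.64%. Without CD replicate 1 the C/EBP string was at 23.3% of CD-higher loci, above the share of all. For LD-higher loci CAAAGTCCA stayed at 7.94% to 9.47% and the AP-1 string at 8.70% to 15.3%, both above the share of all. The C/EBP string was at 18.75% of LD-higher loci without LD replicate 2, under the share of all. For CAAAGGTCA and the FOXA string the order of a class and all loci also turned in at least 1 of these settings. A match is a run of letters and not a bound site.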

How the data were processed

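Hnf4α and C/EBPα peaks were called by the authors with HOMER (factor style) on reads aligned to mm9 with Bowtie (version 0.12.8) and deduplicated with Picard (version 1.110), per sample. The deposited lists give a signal, the normalized tag count, together with whole-number tag counts, a findPeaks score and a fold ratio over input. H3K27ac regions were called by the authors with SICER, and their deposited counts and p-values were not used beyond position. RNA counts per gene were deposited from STAR (version 2.5) and featureCounts (version 1.5.0-p1), 31707963 to 39012699 per liver. The promoter capture Hi-C score of the authors is pooled per diet, and its contacts were used without a test.

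Peaks were merged where they overlapped, and no shared locus held more than 1 peak of a list. Percentile ranks were compared with limma (3.58.1, trend and robust), tag counts with edgeR (4.0.16, TMM scaling and quasi-likelihood) and DESeq2 (1.42.0), in R 4.3.3, with Benjamini-Hochberg adjustment over all 23344 loci. RNA counts were compared with edgeR after filterByExpr, and a call required an adjusted p under 0.05 and a fold over 1.2. Each test was tested on simulated data. Named loci were the 10 per direction with the largest difference among called loci, filled where fewer were called with those of smallest p whose diets did not overlap, and the strongest locus of each listed gene. Some of these are not reported here. Genes were taken as near within 50 kb of a RefSeq start, and features from GENCODE M1 on NCBIM37.

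The loci and gene lists were chosen with earlier results of these data known. Tags are not independent molecules beyond deduplication, tests on 2 livers per diet measure only the spread between these livers, and an exact permutation test of 2 against 2 cannot go below p = 0.333. Replicate numbers were not taken to pair the samples.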

Additional observations from a re-analysis of the deposited data

Results flagged for a closer look

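The Hnf4a transcript in the LD livers was set apart by 1 liver. LD replicate 4 stood at 459 CPM, while the other LD livers ranged from 372 to 397, a gap of 0.712 of the range of the group. The Prr15 transcript was set apart in LD replicate 3, at 0.248 CPM against 0.637 to 0.780 in the other LD livers, a gap of 0.73 of the range. Of 68 groups of 5 livers examined for named genes these were the 2 so marked, and about 1 in 20 groups is marked by chance. The cause was not tested.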

How the results depend on the processing

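Allowing only 1 peak per list left the same 23344 loci and was no check. On the rank scale the count of 0 in both directions held with the findPeaks score and with limma without trend and robust settings. It also held with peak centres within 100 bp, peaks merged within 100 bp and the replicate block. It did not hold for ranks over the whole list (11 higher on LD and 1 on CD), log2 height (774 and 752), normal scores (899 and 584), the lowest 25% of loci by height left out (55 and 9), edgeR on tags (961 and 615) and DESeq2 on tags (493 and 304), and the cause was not tested. edgeR on tags gave 1439 and 1059 with the replicate block, 368 and 129 without LD replicate 2, and 190 to 894 and 81 to 737 with a library left out, settings chosen after seeing the data. Loci with both LD above both CD numbered 8520 to 8857, and the opposite 9144 to 9214, with 1 library left out, where fewer samples are compared, and numbered 7292 and 3387 for ranks over the whole list. At the named loci no direction turned under the settings run on them. The replicate block and left-out libraries of edgeR were not among these settings. Where the diets did not overlap, leaving out 1 library could not turn the direction, so those settings were no check.

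C/EBPα calls (540 and 354) were 247 and 446 with whole-list ranks, 654 and 917 with log2 height, 729 and 581 with normal scores, 165 and 54 with plain limma, 836 and 535 with edgeR, 395 and 149 with DESeq2, 641 and 494 with the replicate block, and 106 to 633 and 3 to 581 without 1 library. RNA-seq calls (1859 and 1498) stayed within 1.5 times under every setting run, 1631 to 1890 and 1202 to 1595 without 1 liver, and 1818 and 1355 with the replicate block.

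Promoter shares of 3.95% and 13.5% were 6.87% and 17.6% within 2 kb of a start, and 1.05% to 3.65% and 7.75% to 35.8% for classes called without 1 library. The genes called higher on LD near LD-higher loci made up 22.2% to 28.4% without 1 library, and 15.2% when linked by promoter capture Hi-C, and those called lower 4.69% to 11.1%. For CD-higher loci the share higher was 5.77% to 14.5% and the share lower 23.1% to 37.1% without 1 library, and 17.9% lower when linked by promoter capture Hi-C.

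Replicate numbers did not pair the samples: deviations of same-numbered Hnf4α samples correlated at 0.0611, of C/EBPα samples at -0.0445 and of RNA samples at -0.078 to 0.191. The median shared locus had 86 tags in CD replicate 1, against 134 to 171 in the others, so the relative counting error was larger in that library.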
